A study of Mus musculus with 7 samples.

Results

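Collagens are the proteins of the extracellular matrix built from 3 chains wound into a triple helix. The collagen genes were taken as all protein-coding genes of the RefSeq table for GRCm38.p6, the build also called mm10, whose symbol is Col, a number, the letter a and a number. This gave 44 genes among the 21130 protein-coding genes that have their midpoint within the span of the mapped domains of a chromosome. They encode 27 collagen types, and 11 genes were classed as fibrillar, 9 as network-forming and 24 as other. The classes follow the assemblies that the proteins form and were not taken from the data.

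The positions come from CUT&RUN, in which an antibody on chromatin recruits micrococcal nuclease to cut and release the DNA around its target, in mouse embryonic fibroblast lines called iMEF, derived independently from a single colony of mice. The series holds 2 libraries of Lamin B1, 2 of IgG as control, 2 of H3K9me2, made with the antibodies ab1220 and 39041, and 1 of H3K14ac. Each reaction held 500000 cells, and no treatment, time point, age or sex is given in the sources used here. The values used are a merged Lamin B1 list of 1437 lamina-associated domains (LADs). It is called wild type in its name alone, it averages over the cells of a culture, and it has no signal, read depth or replicate error, so a gene is either in a domain or not and no test between groups of genes was made. Borders lie on a grid of 2.5 kb. RNA was not measured in the data used here, so the fibroblast label was not checked by expression. Of 5 fibroblast markers (Fn1, Vim, Thy1, Pdgfra and Pdgfrb), 0 had a midpoint in a LAD, which says little with 24.6% of all protein-coding genes in LADs.

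LADs are the stretches of chromatin that contact the nuclear lamina, the protein layer beneath the inner nuclear membrane, and they are known as largely repressed chromatin. Fibroblasts make most of the collagen of connective tissue. Fibrillar collagens (types I, III and V in most connective tissue, types II and XI in cartilage) form the striated fibrils. Network collagens include type IV, the sheet of basement membranes, and the hexagonal lattices of types VIII and X. The other classes used here are beaded filaments (type VI), anchoring fibrils (type VII), fibril-associated collagens with interrupted helices (FACITs), transmembrane collagens, the multiplexins (types XV and XVIII), and types XXVI and XXVIII.

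The promoters of 8 members are shown first, because the LAD borders place them in 3 ways. Each is a window of 300 bases, from 250 before to 50 after a start in the RefSeq promoter table (GRCm38.p6), printed 5′ to 3′ on the strand of the gene, with each CpG dinucleotide in capitals. That start can lie downstream of the outer end of the gene that is called the gene start elsewhere in the text. Among the printed windows, those of Col25a1, Col19a1, Col28a1 and Col6a5 lie wholly inside the gene, with a start at most 1.82 kb (Col6a5) downstream of the outer end. Each of the 35 collagen windows was on the same side of the border as the gene start. Outside LADs, with the whole gene outside, lay the windows of Col3a1 (chr1:45311288-45311587, plus strand) and Col1a2 (chr6:4505368-4505667, plus strand), which encode chains of the main fibrils that fibroblasts secrete.
Col3a1: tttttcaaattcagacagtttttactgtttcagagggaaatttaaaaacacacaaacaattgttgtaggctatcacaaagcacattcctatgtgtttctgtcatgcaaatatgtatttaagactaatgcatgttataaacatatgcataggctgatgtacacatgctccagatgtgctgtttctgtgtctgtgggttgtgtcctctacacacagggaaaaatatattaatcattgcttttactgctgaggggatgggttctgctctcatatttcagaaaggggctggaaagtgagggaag
Col1a2: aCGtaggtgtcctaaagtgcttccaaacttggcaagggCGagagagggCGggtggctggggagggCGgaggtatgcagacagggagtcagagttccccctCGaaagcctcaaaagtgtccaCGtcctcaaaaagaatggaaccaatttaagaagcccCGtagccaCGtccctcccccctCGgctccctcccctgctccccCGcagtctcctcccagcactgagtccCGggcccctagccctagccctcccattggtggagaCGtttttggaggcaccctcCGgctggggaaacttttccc
Inside LADs, with the whole gene inside, lay the windows of Col11a1 (chr3:114030290-114030589, plus strand), Col25a1 (chr3:130180595-130180894, plus strand), Col6a5 (chr9:105960594-105960893, minus strand) and Col9a1 (chr1:24177360-24177659, plus strand).
Col11a1: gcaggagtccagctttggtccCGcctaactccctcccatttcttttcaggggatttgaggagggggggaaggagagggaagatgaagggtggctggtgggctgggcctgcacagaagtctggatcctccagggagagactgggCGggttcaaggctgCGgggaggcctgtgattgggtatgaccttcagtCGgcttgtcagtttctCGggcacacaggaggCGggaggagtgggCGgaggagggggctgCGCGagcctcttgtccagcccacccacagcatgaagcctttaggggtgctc
Col25a1: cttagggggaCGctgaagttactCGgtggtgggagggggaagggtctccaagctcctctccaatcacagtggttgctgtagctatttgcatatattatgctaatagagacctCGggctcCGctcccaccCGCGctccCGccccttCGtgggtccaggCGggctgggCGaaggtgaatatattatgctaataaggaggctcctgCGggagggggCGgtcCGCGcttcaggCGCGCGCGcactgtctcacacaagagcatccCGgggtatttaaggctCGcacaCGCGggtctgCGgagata
Col6a5: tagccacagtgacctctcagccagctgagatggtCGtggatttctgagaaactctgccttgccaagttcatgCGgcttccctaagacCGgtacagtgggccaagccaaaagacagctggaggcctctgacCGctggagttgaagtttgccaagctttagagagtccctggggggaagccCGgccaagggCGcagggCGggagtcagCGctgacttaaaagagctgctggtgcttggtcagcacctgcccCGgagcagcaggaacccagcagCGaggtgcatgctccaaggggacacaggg
Col9a1: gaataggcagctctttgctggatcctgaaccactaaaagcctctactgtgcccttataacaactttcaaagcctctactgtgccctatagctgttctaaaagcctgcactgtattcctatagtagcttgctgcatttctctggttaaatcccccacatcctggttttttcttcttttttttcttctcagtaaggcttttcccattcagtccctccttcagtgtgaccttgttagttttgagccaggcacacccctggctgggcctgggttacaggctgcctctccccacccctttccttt
In the third arrangement the gene midpoint was inside a LAD and the promoter outside it, as for Col19a1 (chr1:24587388-24587687, minus strand) and Col28a1 (chr6:8192568-8192867, minus strand). The Col19a1 promoter lies in a gap of 85 kb between LADs.
Col19a1: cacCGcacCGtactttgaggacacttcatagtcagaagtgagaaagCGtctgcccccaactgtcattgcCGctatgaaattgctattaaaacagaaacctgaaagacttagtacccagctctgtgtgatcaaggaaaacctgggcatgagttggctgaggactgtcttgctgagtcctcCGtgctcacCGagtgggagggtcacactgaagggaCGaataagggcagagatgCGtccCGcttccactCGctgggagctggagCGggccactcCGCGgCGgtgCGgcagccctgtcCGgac
Col28a1: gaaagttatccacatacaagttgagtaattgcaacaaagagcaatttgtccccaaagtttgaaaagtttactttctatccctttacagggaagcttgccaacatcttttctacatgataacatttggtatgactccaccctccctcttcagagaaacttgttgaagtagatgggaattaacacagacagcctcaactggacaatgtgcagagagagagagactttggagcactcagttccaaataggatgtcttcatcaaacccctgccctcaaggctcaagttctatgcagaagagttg

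Of the 44 collagen genes, 9 (20.5%) had their midpoint in a LAD. The background share over all protein-coding genes was 24.6%, and 19.8% without olfactory and vomeronasal receptors, which are concentrated in LADs, so the collagen share as a whole is near the background. The collagens in LADs were Col11a1 of the fibrillar class and Col6a4, Col6a5, Col6a6, Col9a1, Col19a1, Col22a1, Col25a1 and Col28a1 of the other class. By class this was 1 of 11 fibrillar genes (9.09%), 0 of 9 network genes and 8 of 24 other genes (33.3%). The count of other genes fell to 5 of 24 when whole genes had to be inside or when domains under 500 kb were left out, and the network count was 3 of 16 with types VI and VII counted as network-forming. The classes are small and hold neighbouring genes, so these shares are counts of this list and carry no test. Grouping members whose midpoints lay within 500 kb of the next gave 34 loci, of which 6 (17.6%) lay in LADs and 28 outside. At 0 loci did members fall on both sides.

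**Figure D1:**
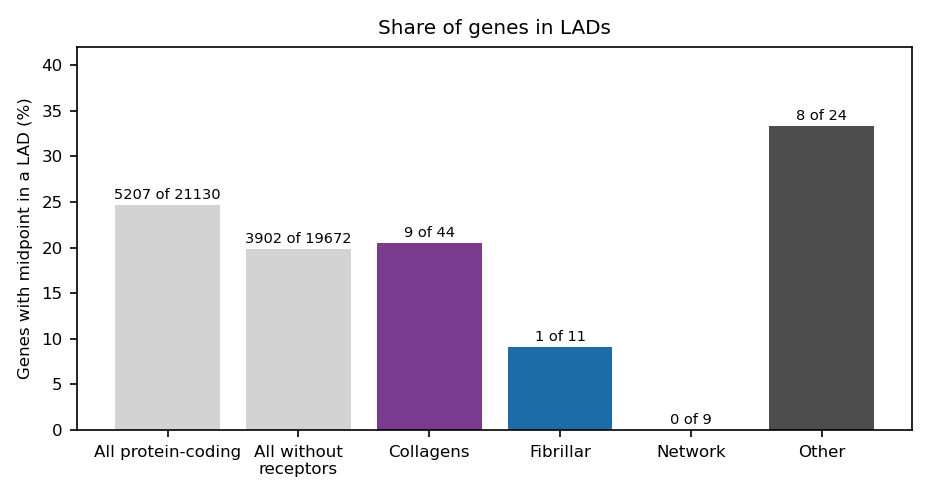
Percentage of genes with their midpoint in a LAD (vertical axis) for all protein-coding genes, the same without olfactory and vomeronasal receptors, all collagens, and the fibrillar, network and other collagens; the counts stand above the bars and there is no replicate error. The bar of all collagens (20.5%) lies between the backgrounds of 24.6% and 19.8%, while the network bar is at 0 and that of the other collagens reaches 33.3%, a count of 8 that is 5 with whole genes.

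Distances to the nearest border are given for the gene midpoint, as kb inside or outside a LAD. On a scale where inside is negative, the collagen median was 719.9 kb outside, with quartiles of 151.4 and 1288 kb, and the median of all protein-coding genes was 395.1 kb outside. The class medians were 843.7 kb for fibrillar, 915.0 kb for network and 361.1 kb for other collagens. More than 1 Mb outside were 17 of 44 collagens (38.6%), against a background of 31.6%. No LAD reached within 500 kb of the midpoint of 26 collagens (59.1%), against a background of 45.9% of genes. Within 100 kb of a border, on either side, lay 6 collagens (13.6%), against a background of 15.4%. Without olfactory and vomeronasal receptors the background median was 470.5 kb outside. The background shares were then 33.5% over 1 Mb outside, 48.8% without a LAD within 500 kb and 15.5% within 100 kb. The 44 genes form 34 loci, so neighbours share much of their distance. With domains of at least 500 kb the medians were 1101 kb for collagens and 691.4 kb for all protein-coding genes.

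**Figure D2:**
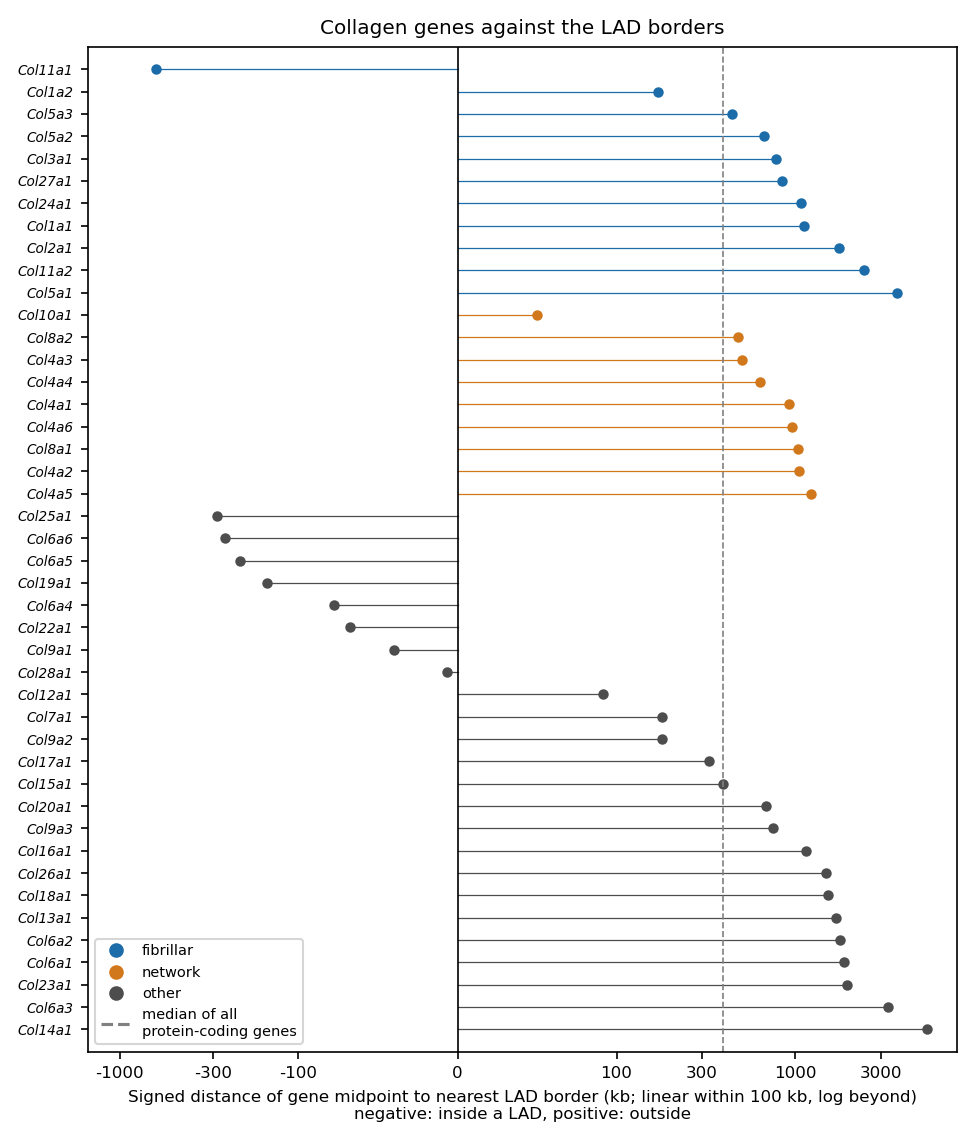
Signed distance in kb of the midpoint of each of the 44 collagen genes to the nearest LAD border (horizontal axis, linear within 100 kb and logarithmic beyond; negative values are inside a LAD), coloured by class, with a dashed line at the median of all protein-coding genes. Network genes are all to the right of the border, 1 fibrillar gene (Col11a1) is to its left, and the other collagens run from 285.6 kb inside (Col25a1) to 5408 kb outside (Col14a1).

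The genes of type I collagen, the main fibril protein of skin and bone, were outside LADs on separate chromosomes. Col1a1 (chromosome 11, 94936224 to 94953042) was 1114 kb outside, in a LAD-free gap of 14.6 Mb that holds 392 protein-coding genes. Col1a2 (chromosome 6, 4505618 to 4541543) was 171.4 kb outside, and its nearer end was 153.5 kb from a LAD of 757.5 kb (3594636 to 4352133). Col1a2 was the fibrillar gene nearest to a border among those outside. Col3a1 (chromosome 1, 45311538 to 45349706), the partner of type I in distensible tissue, and Col5a2 (45374331 to 45503282), whose chain regulates fibril diameter, are neighbours in a gap of 3462 kb with 22 protein-coding genes. Col3a1 was 779.2 kb and Col5a2 671.0 kb outside. The other chains of type V were also outside, Col5a1 at 3693 kb and Col5a3 at 441.1 kb.

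The cartilage fibril genes fell on both sides. Col11a1 (chromosome 3, 114030479 to 114220756), which encodes a chain of type XI collagen in the core of cartilage fibrils, lay wholly inside a LAD of 2117 kb (113498252 to 115615744), at 627.4 kb from its nearer border. It was the deepest of the 9. The median depth was 307.7 kb over all 5207 protein-coding genes in LADs, which only Col11a1 of the 9 exceeded, and 247.5 kb without olfactory and vomeronasal receptors, which Col25a1 and Col6a6 exceeded as well. The LAD holds 5 protein-coding genes, and there was no other within 500 kb of the Col11a1 midpoint. Col11a2, whose chain joins that of Col11a1 in type XI, lay 2416 kb outside on chromosome 17 (34038919 to 34066684), with 46 other genes in the same window. Col2a1, the main cartilage collagen and the source of the remaining type XI chain, was 1749 kb outside on chromosome 15. The late-described fibrillar genes Col24a1 and Col27a1 were 1069 and 843.7 kb outside.

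All 6 genes of type IV collagen, the basement membrane sheet, lay outside LADs, with no LAD within 500 kb of any midpoint. Over all protein-coding genes, 24.6% were in LADs and 45.9% had no LAD within 500 kb. The 6 genes form 3 adjacent gene pairs, so their values describe 3 loci. Col4a1 and Col4a2, the chains of nearly every basement membrane, share a locus on chromosome 8 and were 915.0 and 1040.4 kb outside. Their promoter windows overlap by 78 bases. Col4a3 and Col4a4, chains of the glomerular membrane, were 500.2 and 637.0 kb outside on chromosome 1. Col4a3 passed the 500 kb limit by less than the grid of the borders. Col4a5 and Col4a6 were 1221 and 958.4 kb outside on X, and 2242 and 2143 kb with domains of at least 100 kb. Of the 9 network genes, Col10a1 and Col8a2 were the only ones with a LAD within 500 kb of the midpoint. For Col8a2 this rests on a short domain, because the gene was 1087 kb outside with domains of at least 100 kb.

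Among the short-chain network collagens, Col10a1 (chromosome 10, 34389981 to 34397085), the marker of hypertrophic cartilage cells, was 49.9 kb outside. It lay in a gap of 525.0 kb between LADs of 2227 kb (31690981 to 33918473) and 2525 kb (34443472 to 36968463), near the edge of the latter. It is also the shortest collagen gene, at 7.11 kb, and 47.5% of the 1 Mb around its midpoint was LAD. Col8a1 and Col8a2, of the membrane beneath the corneal endothelium and of vessel walls, were 1035 and 475.0 kb outside.

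Type VI collagen, a beaded filament around cells, was split between loci. The 3 long-known chains are encoded by Col6a1 (1879 kb outside), Col6a2 (1771 kb outside) and Col6a3 (3304 kb outside). The genes of the later-found chains, which can stand in for the chain of Col6a3, are adjacent on chromosome 9 and lay together and wholly inside a LAD of 620.0 kb (105501251 to 106121248). Col6a6 (105689417 to 105828246) was 257.6 kb inside, Col6a5 (105856070 to 105962463) 212.0 kb and Col6a4 (105990318 to 106096828) 77.7 kb. The whole domain holds 4 protein-coding genes, so 3 of its 4 are collagens. Because the 3 genes share 1 domain, they are a single placement and not 3. Col7a1, the anchoring fibril of skin, was 179.5 kb outside on the same chromosome (108953586 to 108984875).

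FACITs decorate the surface of fibrils, and 3 of the 9 were in LADs, against 24.6% of all protein-coding genes (19.8% without olfactory and vomeronasal receptors). Only 1 of the 9, Col9a1, was wholly inside a LAD, against 22.5% of all protein-coding genes. With domains of at least 500 kb, Col9a1 and Col19a1 were outside. The type IX chains of cartilage fell on both sides, with Col9a1 40.2 kb inside, Col9a2 180.6 kb outside and Col9a3 753.3 kb outside. Col9a1 (chromosome 1, 24177589 to 24252738) and Col19a1 (24257683 to 24587922), which encodes a rare basement membrane zone collagen, share a LAD of 397.5 kb (24174925 to 24572423) and are the only protein-coding genes with a midpoint in it. The low border of this LAD lies just before the start of Col9a1, which was at -2.66 kb on the signed scale, about the grid of the borders. The high border lies inside Col19a1. Col19a1 was 149.6 kb inside at its midpoint, and 95.3% of the gene was in the LAD, but its start was 15.5 kb outside. That start lies in a gap of 85 kb before the next LAD. With domains 250 kb or less apart joined, the gap was closed and the Col19a1 midpoint was 247.9 kb inside.

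Col22a1 (chromosome 15, 71795795 to 72150979), the collagen of muscle and tendon junctions, was 67.6 kb inside, and 83.1% of its length was LAD. It runs from the end of a LAD of 2937 kb (69103464 to 72040953) across a gap into a LAD of 395.0 kb (72100954 to 72495952). Both ends of Col22a1 were therefore in LADs, and the gap crosses the gene between 245.2 and 305.2 kb from its low-coordinate end. Only 2 protein-coding genes have their midpoint in the longer LAD. Col12a1 (chromosome 9, 79598987 to 79721141), a FACIT of tendon and ligament, was in the opposite position. It lay 91.2 kb outside, in a gap of 245.0 kb between LADs of 332.5 kb (79236335 to 79568833) and 197.5 kb (79813833 to 80011331), with its nearer end 30.2 kb from the former. Joining domains separated by 250 kb or less placed it inside, at -843.7 kb on the signed scale. The remaining FACITs were outside. Col14a1, on chromosome 15, was 5408 kb from a border, the farthest of all collagens, in a gap of 14.9 Mb. Col16a1 was 1144 kb and Col20a1 686.4 kb outside.

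Of the 4 transmembrane collagens, 1 (25%) was in a LAD, Col25a1, a share equal to the background of 24.6% within 1 gene. Col25a1 encodes a membrane collagen of neurons and developing muscle and is the longest collagen gene, at 419.5 kb. Col25a1 (chromosome 3, 130180358 to 130599884) lay wholly inside a LAD of 575.0 kb (130100699 to 130675696) at 285.6 kb from a border, so the gene fills most of the domain, which holds 2 protein-coding genes. Col17a1, of the hemidesmosomes of skin, was 329.2 kb outside, Col13a1 1692 kb and Col23a1 1944 kb. Of the multiplexins of basement membrane zones, Col15a1 was 392.9 kb and Col18a1, the source of endostatin, 1524 kb outside. Col26a1 was 1489 kb outside. Col28a1 (chromosome 6, 7997100 to 8193709), a collagen of peripheral nerve, had the midpoint nearest to a border, 6.72 kb inside a LAD of 327.5 kb (7774623 to 8102121). That border cuts the gene, with 53.4% of its length in the LAD and its start 91.6 kb outside. With the gene start in place of the midpoint, Col28a1 and Col19a1 counted as outside.

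Counted by collagen type, 7 types have 2 or more genes. Types I, IV, V and VIII had all of their genes outside LADs, and types VI, IX and XI had genes on both sides. These 3 types with chains on both sides assemble from products of different genes. Of the 20 types with a single gene, 4 were in LADs, which is near the background of 24.6% (19.8% without olfactory and vomeronasal receptors).

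**Figure D3:**
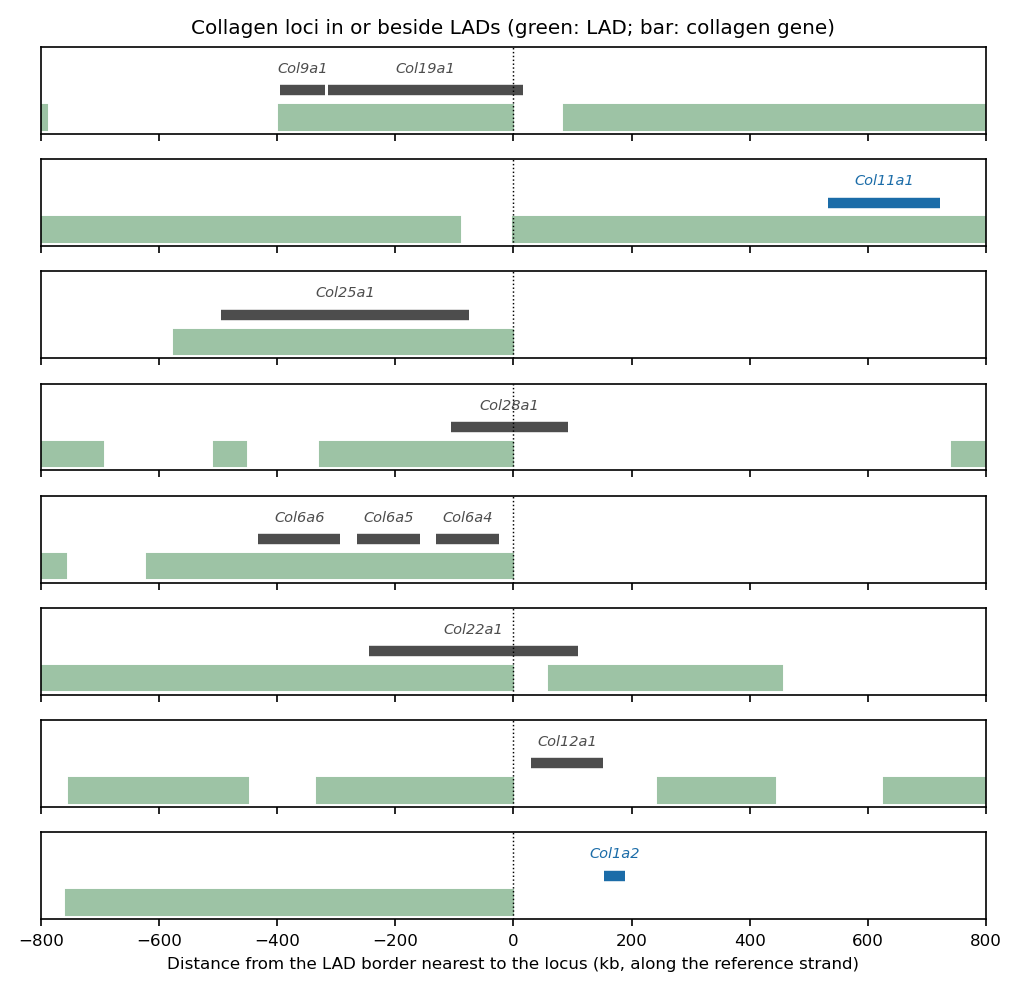
Collagen genes (bars, fibrillar in blue and other in grey) and LADs (green) along the chromosome at the 6 loci in LADs and at Col12a1 and Col1a2, with the horizontal axis in kb from the LAD border nearest to the locus (dotted line; for loci of several genes, nearest to Col19a1 or Col6a4). Col11a1, Col25a1, Col9a1 and the Col6a6, Col6a5 and Col6a4 genes lie wholly over green, Col19a1, Col22a1 and Col28a1 cross a border, and Col12a1 and Col1a2 lie beside a LAD.

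Of the 9 collagens that touched a LAD, 6 were wholly inside and 3 (Col19a1, Col22a1 and Col28a1) were cut by a border. Out of all 44 collagens this was 20.5% with any overlap, 13.6% wholly inside and 6.82% cut by a border, against backgrounds of 26.0%, 22.5% and 3.47% of all protein-coding genes. Among the 5497 protein-coding genes that touch a LAD, 13.3% were cut by a border. The collagen share rests on 3 genes. The cut collagens are long, at 330.2, 355.2 and 196.6 kb. Whether the borders fall in exons or introns was not analysed here.

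Collagen genes are long, with a median of 114.4 kb against 17.4 kb for all protein-coding genes. The 9 in LADs had a median length of 190.3 kb, against 105.5 kb for the 35 outside. They ranged from 75.2 kb (Col9a1) to 419.5 kb (Col25a1), and Col9a1, Col6a5 and Col6a4 were shorter than the collagen median, so the lengths in and outside LADs overlapped. Over all protein-coding genes the medians were 10.2 kb in LADs and 19.0 kb outside, and without the receptors, which are short genes, 20.6 and 19.3 kb. Of the 26 collagens of 100 kb or more, 8 (30.8%) were in LADs, against a background of 34.4% of genes of that length. Of the 13 from 25 to 100 kb, 1 (7.69%) was, against 16.0% of all genes of that length, and of the 5 under 25 kb 0 were, against 26.9%. Without olfactory and vomeronasal receptors these backgrounds were 34.4% for the longest, 15.1% for the middle and 19.3% for the shortest class. The part of gene length in the difference between classes was not tested; the median length was 45.1 kb for fibrillar, 135.1 kb for network and 106.5 kb for other collagens.

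**Figure D4:**
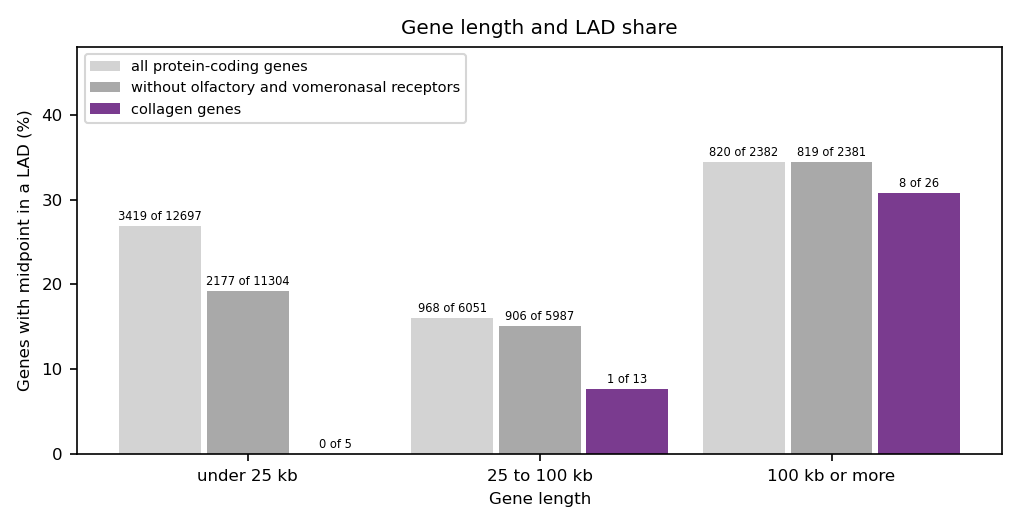
Percentage of genes with their midpoint in a LAD (vertical axis) by gene length class, for all protein-coding genes (light grey), the same without olfactory and vomeronasal receptors (dark grey) and collagen genes (purple), with counts above the bars and no replicate error. In the longest class the collagens (30.8%) and all genes (34.4%) are close, and the collagen bars of the shorter classes rest on 5 and 13 genes.

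The surroundings of the collagens differed between loci. Within 500 kb of the midpoint the 9 collagens in LADs had a median of 6 other protein-coding genes and the 35 outside had 10, against 12 and 16 over all protein-coding genes, and 8 and 15 without olfactory and vomeronasal receptors. The range among the 9 ran from 0 (Col11a1) to 22 (Col6a4, near the end of its LAD). In the same window, LADs made up 100% of the bases around Col11a1 and 94.0% around Col22a1, but 38.2% around Col28a1 and 52.3% around Col9a1. Several of the 9 are thus near the edge of a LAD or in a LAD of moderate length, and the 6 domains ranged from 327.5 to 2937 kb.

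Promoter windows could be matched for 35 of the 44 collagens. No window is given for Col12a1, Col14a1, Col1a1, Col22a1, Col26a1, Col2a1, Col4a3, Col5a2 and Col9a3. Of the 35 windows, 6 were in LADs (Col6a4, Col6a5, Col6a6, Col9a1, Col11a1 and Col25a1) and 29 outside, against a background of 24.6% of gene starts in LADs. CpG dinucleotides, which are dense in the promoters of broadly active genes, numbered a median of 2 (quartiles 1 and 7) over the 4177 windows of protein-coding genes in LADs and 17 (7 and 26) over the 12806 outside. Collagen windows in LADs held 23 (Col25a1), 14 (Col6a6), 10 (Col6a5), 9 (Col11a1), 5 (Col6a4) and 0 (Col9a1). Of these 6, 5 were above the median of windows in LADs, also when receptors were left out (median 4, quartiles 1 and 11).

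Collagen windows outside LADs ran from 0 to 37 CpGs with a median of 12, and 20 of the 29 were below the median of windows outside. The extremes were Col3a1 and Col28a1, at 0 each, and Col4a1, at 37. Col1a2 held 13 and Col19a1 16. The collagens in and outside LADs thus overlapped widely in CpG count, and both a gene in a LAD (Col9a1) and the fibroblast gene Col3a1 had none in the printed window. Class medians were 14.5 for fibrillar, 13 for network and 10 for other collagens.

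**Figure D5:**
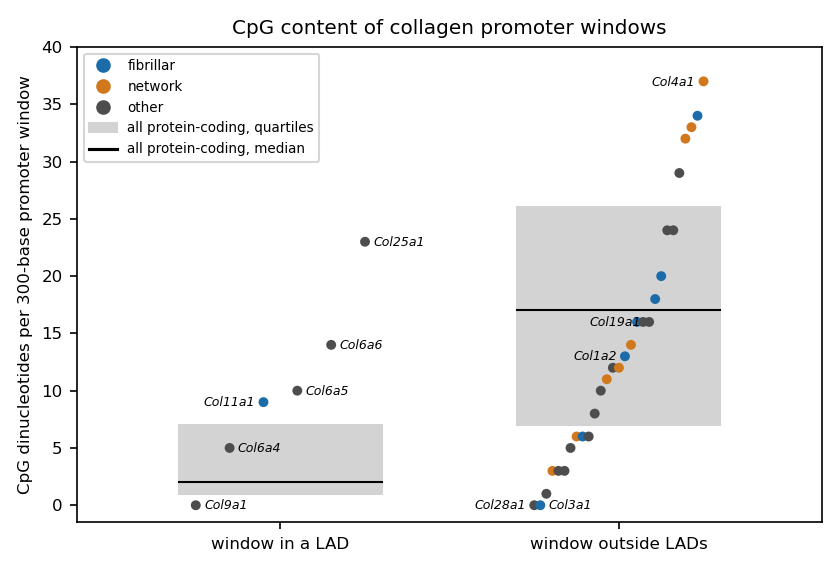
Number of CpG dinucleotides per 300-base promoter window (vertical axis) of 35 collagen genes, for windows in LADs and outside, coloured by class; grey boxes give the quartiles and black lines the median of all protein-coding windows, and the points are spread sideways in order of their values. Among the 6 windows in LADs, Col25a1 (23), Col6a6 (14), Col6a5 (10) and Col11a1 (9) lie above the box, whose upper edge is 7 (11 without olfactory and vomeronasal receptors, which Col25a1 and Col6a6 exceed), and the 29 outside run from 0 to 37.

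Short motifs were counted in the same windows on both strands. The letters TATAAA occurred in 0 of the 6 collagen windows in LADs and 5 of the 29 outside (17.2%), against 25.6% and 9.51% of all protein-coding windows. They were in the windows of Col3a1, Col10a1, Col11a2, Col13a1 and Col17a1. CCAAT was in 3 of the 6 (50%) and 9 of the 29 (31.0%), against 41.4% and 38.5% of all. GGGCGG, which contains a CpG, was in 5 of the 6 (83.3%) and 17 of the 29 (58.6%), against 18.3% and 55.0% of all. Col9a1 was the window in a LAD without GGGCGG. A match describes letters only, and the counts are too small to set the collagens apart.

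Other genes that act on collagens were placed from 4 lists, and 7 of the 51 genes found (13.7%) were in LADs, against a background of 24.6% of protein-coding genes, or 19.8% without olfactory and vomeronasal receptors. Some of the 51 genes are neighbours that share a locus, and the count is too small to be read as a difference. Of the genes for modification and folding, 2 of 17 were in LADs. Plod2, a lysyl hydroxylase that sets the type of crosslink (chromosome 9, 92539636 to 92608428), was 300.2 kb inside, and Crtap, a partner of prolyl 3-hydroxylase (114375131 to 114390712), was 10.8 kb inside on the same chromosome. The 18th listed gene, P4hb, lies beyond the last domain of chromosome 11 and was not counted. Of the genes for processing and crosslinking, 1 of 13 was, the procollagen N-proteinase gene Adamts3 (chromosome 5, 89673841 to 89883668; 393.3 kb inside).

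Of the collagen receptor genes, 4 of 10 were in LADs, against the same background of 24.6% (19.8% without olfactory and vomeronasal receptors), a count too small to be read as a difference. Itga1 (chromosome 13, 114958079 to 115101964, 164.5 kb inside) and Itga2 (114833081 to 114932100, 17.1 kb inside) encode alpha subunits of collagen-binding integrins. They share a LAD of 2045 kb whose border cuts Itga2. The other listed integrin alpha genes, Itga10 and Itga11, were 1916 and 5283 kb outside. Gp6 (chromosome 7, 4362853 to 4397851), the collagen receptor of platelets, was 24.8 kb inside, and Lair1 (4007073 to 4073567), an inhibitory collagen receptor of leukocytes, 32.3 kb inside. Within 100 kb of a border, on either side, were 4 of the 10 receptor genes, namely Gp6, Lair1, Itga2 and, 35.7 kb outside, Itgb1, against a background of 15.4%. Of the 11 genes of small leucine-rich proteoglycans, which bind fibrils, 0 were in LADs, against 24.6% of all genes, at a median of 282.2 kb outside. Several of those genes are neighbours and share a locus.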

How the data were processed

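CUT&RUN of Lamin B1, H3K9me2, H3K14ac and IgG was done in iMEF lines, and the domain list used is the merged Lamin B1 result. Bowtie2 and the build mm10 are named in the submitters' processing notes. The caller, its threshold and the use of IgG are not given in the sources used here. The deposited values are domain starts and ends in base pairs, and the deposited score is 0 in all 1437 lines, so read depth is unknown. Positions are counted from 1. Genes and promoters came from RefSeq tables of GRCm38.p6. A gene was placed by its midpoint, and 21130 of 21887 protein-coding genes lay between the first and last domain of a chromosome. Strand was known for 35 of 44 collagens. Placement was checked on 50 simulated sets (100% right). Python 3.11.15, numpy 2.4.6, pandas 2.3.3, scipy 1.17.1 and matplotlib 3.10.9 were used. No test was made, because values per library were not used. Members and lists were chosen with earlier results of these data known. All 44 collagens are named, and of the pathway, laminin and fibroblast lists those in a domain.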

Additional observations from a re-analysis of the deposited data

How the results depend on the processing

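The count of 9 collagens in LADs stayed between 6 and 10 under 7 alternatives, and the fibrillar count was 1 under all 6 of its own. The 6 by gene start are out of the 35 collagens with a strand, and the 6 with 1 gene per locus are out of 34. The network count was 0 under its 6 alternatives of placement and domains and became 3 of 16 when types VI and VII were counted as network-forming. The 8 other collagens became 5 with the gene start (19 genes with a strand), with whole genes and with domains of at least 500 kb. By gene start, Col22a1 dropped out only because its strand was unknown, as both of its ends were in LADs. The length of 500 kb, 1 gene per locus and the background without receptors were chosen after seeing the data. The background of 24.6% became 26.0% with any overlap, 22.5% with whole genes, 28.3% with domains 250 kb or less apart joined, 21.5% with domains of at least 500 kb and 19.8% without receptors. With domains of at least 500 kb the median distance was 1101 kb for collagens and 691.4 kb for all protein-coding genes, whose median was 438.8 kb with domains of at least 100 kb. Each alternative changes the placement rule, the domains or the genes counted, and no other cause was tested. Of 167 placements of single collagens, 161 kept their side and 6 changed it. Col9a1 (442.3 kb), Col19a1 (234.6 kb) and Col28a1 (749.2 kb) were outside with domains of at least 500 kb, Col19a1 (15.5 kb) and Col28a1 (91.6 kb) were outside by gene start, and Col12a1 was inside (-843.7 kb) with domains joined. No paired analysis was possible because the list is merged and has no values per replicate, and leaving out a Lamin B1 replicate was not run for that reason. Unknown depth leaves the support of each domain unmeasured.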

Other observations

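Laminins, the other main proteins of basement membranes besides type IV collagen, were placed in the same way. Of 11 laminin genes, 3 (27.3%) had their midpoint in a LAD, against 24.6% of all protein-coding genes and 0 of the 6 type IV collagen genes. Lamb3, a chain of epithelial laminin (chromosome 1, 193294353 to 193343878), was 419.7 kb inside. Lama1, the alpha chain of early embryonic basement membranes (chromosome 17, 67697127 to 67822645), was 61.5 kb inside a LAD of 152.5 kb, with 99.0% of its length in it. Lama4, an alpha chain of vessel walls (chromosome 10, 38965515 to 39110188), was 25.6 kb inside and is cut by a border, with 67.7% of its length in the LAD. Of the 8 laminin genes outside, Lamb1 and Lamc1, chains of most laminins, were 447.2 and 683.7 kb from a border. The numbers are too small to set the laminins apart from the background or from type IV collagen.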
